A study of Mus musculus with 9 samples.

Results

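Blood clotting and the dissolution of clots depend on proteins from the liver and from the cells of blood vessels, and 36 of their genes are described here in mouse liver. They were taken by gene symbol from a table of 34745 genes, and every one of the 36 had enough reads to be tested, among 14134 genes tested in all. By general knowledge of where the proteins are made, 24 of the genes belong to hepatocytes and 12 to vessel cells or leukocytes. The measurements are read counts per gene from RNA sequencing of 9 liver samples from 12-week-old C57BL/6 mice in 3 groups of 3. The group called WT CCl4 (samples 11, 12 and 13) consisted of Tgfbr2f/f mice, in which the gene of a TGF-β receptor is floxed, and the group called KO CCl4 (samples 72, 75 and 79) of Tgfbr2HKO mice. Both received carbon tetrachloride (CCl4), a liver toxin activated in hepatocytes, at 0.25 ml/kg by injection into the abdomen, 2 times a week for 4 weeks. The group called WT NC (samples 1, 2 and 3) had the WT genotype and a treatment given only as NC. The labels explain neither the abbreviation NC nor the Cre line behind the knockout, and they do not say whether each sample is a separate animal. KO livers without CCl4 were not analysed here, and a genotype difference present before CCl4 and one that arose under it cannot be told apart.

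In clotting, tissue factor on damaged cells starts a chain of proteases that ends with thrombin, which cuts fibrinogen into fibrin. Antithrombin, protein C and other inhibitors hold the chain back, and plasmin, made from plasminogen by the activators tPA and uPA, dissolves fibrin again. The liver makes most of the circulating factors in hepatocytes, while its sinusoidal endothelium makes factor VIII and thrombomodulin, and macrophages can make uPA, its receptor and tissue factor.

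The libraries held 16447353 to 20373585 counts. Tgfbr2, the targeted gene, was at 23.5 CPM (reads of a gene per library, brought to equal library size) in KO 72 and 28.3 CPM in KO 79, but at 69.9 CPM in the library labelled KO 75, beside 75.2 to 127 CPM in WT CCl4 and 30.2 to 38.6 CPM in WT NC. On the first principal component of all genes the library labelled KO 75 lay at 73.4, inside the range of WT CCl4 (67.6 to 125.9), while KO 72 was at -34.7 and KO 79 at -4.0. Of the 24 hepatocyte-made genes, this library lay above all WT CCl4 samples in 12, as KO 72 and KO 79 did. In the other 12 it lay within the WT CCl4 range. Tgfbr2 is a gene of many liver cell types, so these values do not settle what the sample is. The tests of the KO group are given with and without this library. The label names hepatocytes, but markers of other liver cells were present in every library. The summed endothelial markers reached 338 to 441 CPM and the summed macrophage markers 436 to 543 CPM in WT NC. Values are therefore those of whole liver tissue, and in such bulk samples fewer cells of a type and less RNA per cell cannot be told apart. Mitochondrial genes took 9.13 to 12.0% of counts in WT NC, 25.4 to 26.3% in WT CCl4 and 19.3 to 21.0% in KO CCl4.

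In the livers of the WT NC group most hepatocyte-made genes stood far above the others in FPKM (fragments scaled by gene length and library total). Fgg, Fgb and Fga, the chains of fibrinogen, came 1, 2 and 3 among the 36 genes in each of the 3 groups, and Plg, which encodes plasminogen, came 4 in each. In WT NC their mean FPKM was 1750 ± 568 for Fgg, 1420 ± 357 for Fgb, 1250 ± 347 for Fga and 756 ± 15.3 for Plg (SD, n = 3). The spreads of the 3 fibrinogen chains between libraries overlapped, but within every library Fgg was above Fgb and Fgb above Fga. At the other end, Plaur was at 0.0259 ± 0.00816 FPKM and Serpinb2 was listed at 0 in WT NC. Among the 12 genes of vessel cells and leukocytes, Tfpi2 at 39.9 ± 6.73 FPKM and F2r at 9.71 ± 0.383 FPKM were the most abundant in WT NC, and the other 10 had means of at most 2.26 FPKM. The 2 sources overlapped, as the mean of Tfpi2 lay beside that of F7 (39.3 FPKM) and above those of F11 (32.4 FPKM) and Pros1 (17.4 FPKM).

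**Figure D1:**
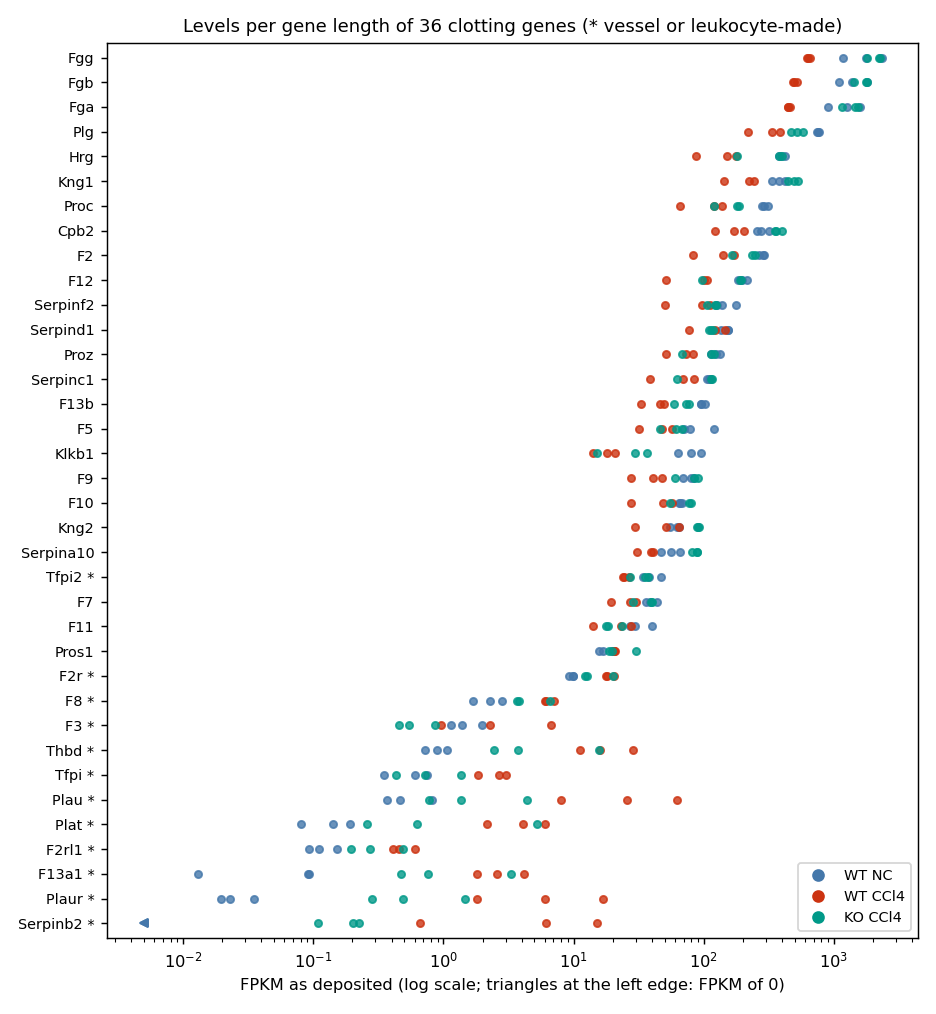
Levels of the 36 genes in FPKM (log scale), each point 1 of 9 liver samples, coloured by group and ordered by the WT NC mean; asterisks mark genes of vessel cells and leukocytes, and triangles at the left edge stand for 0. The fibrinogen chains lead in each group, and the red WT CCl4 points lie left of the blue WT NC points in most rows of the upper, hepatocyte-made part and right of them in most rows of the lower part.

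With CCl4 in WT mice the genes of both sources moved apart. Of the 24 hepatocyte-made genes, 22 fell and none rose past the edgeR threshold (adjusted p under 0.05), where 25% of all genes tested were called lower. Their median log2 fold change was -1.27, beside 0.04 over all genes, and in 23 of the 24 each WT CCl4 sample lay below each WT NC sample, as it did in 31.6% of all genes tested. Of the 12 genes of vessel cells and leukocytes, 10 rose, where 29.5% of all genes tested were called higher, and their median log2 fold change was 2.92. Tfpi2 alone among these 12 fell, and tissue factor (F3) did not pass. Summed over the 24 hepatocyte-made genes, the level was 8150 ± 1250 FPKM in WT NC, 3400 ± 564 FPKM in WT CCl4 and 8350 ± 1140 FPKM in KO CCl4 (SD, n = 3).

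Under CCl4 the KO group differed from the WT group in the opposite sense, with fewer genes past the threshold. Fga, Fgb, Fgg, F9, Serpina10, Kng1, Kng2 and Cpb2 were higher in KO CCl4 by 1.20 to 2.05 on the log2 scale (edgeR adjusted p = 0.0199 to 0.0488), 8 of the 24 hepatocyte-made genes where 3.46% of all genes tested were called higher. Plau, Plaur and Serpinb2 were lower, 3 of the 12 vessel or leukocyte-made genes where 1.61% of all genes tested were called lower. Every one of the 24 hepatocyte-made genes had a positive fold change, with a median of 1.02 beside -0.03 over all genes, but 16 of them did not pass. Without the library labelled KO 75, 20 of the 24 were higher, and of the 12 vessel or leukocyte-made genes 7 were lower and Tfpi2 was higher, where 17.2% of all genes tested were then called higher and 20.4% lower. The 8 and 3 calls also rest on the other libraries: without WT CCl4 11, WT CCl4 12, KO 72 or KO 79 none of the 36 genes passed in either direction, and without a WT NC library 2 to 4 were higher and none lower. Few genes of any kind passed in these fits. Without WT CCl4 11, WT CCl4 12, KO 72 or KO 79, 3 to 30 of all genes tested were higher and 2 to 12 lower. Without a WT NC library, 68 to 88 were higher and 18 to 19 lower. The comparison with WT NC and the comparison of KO with WT share the WT CCl4 libraries, so a low value in those libraries enters both.

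**Figure D2:**
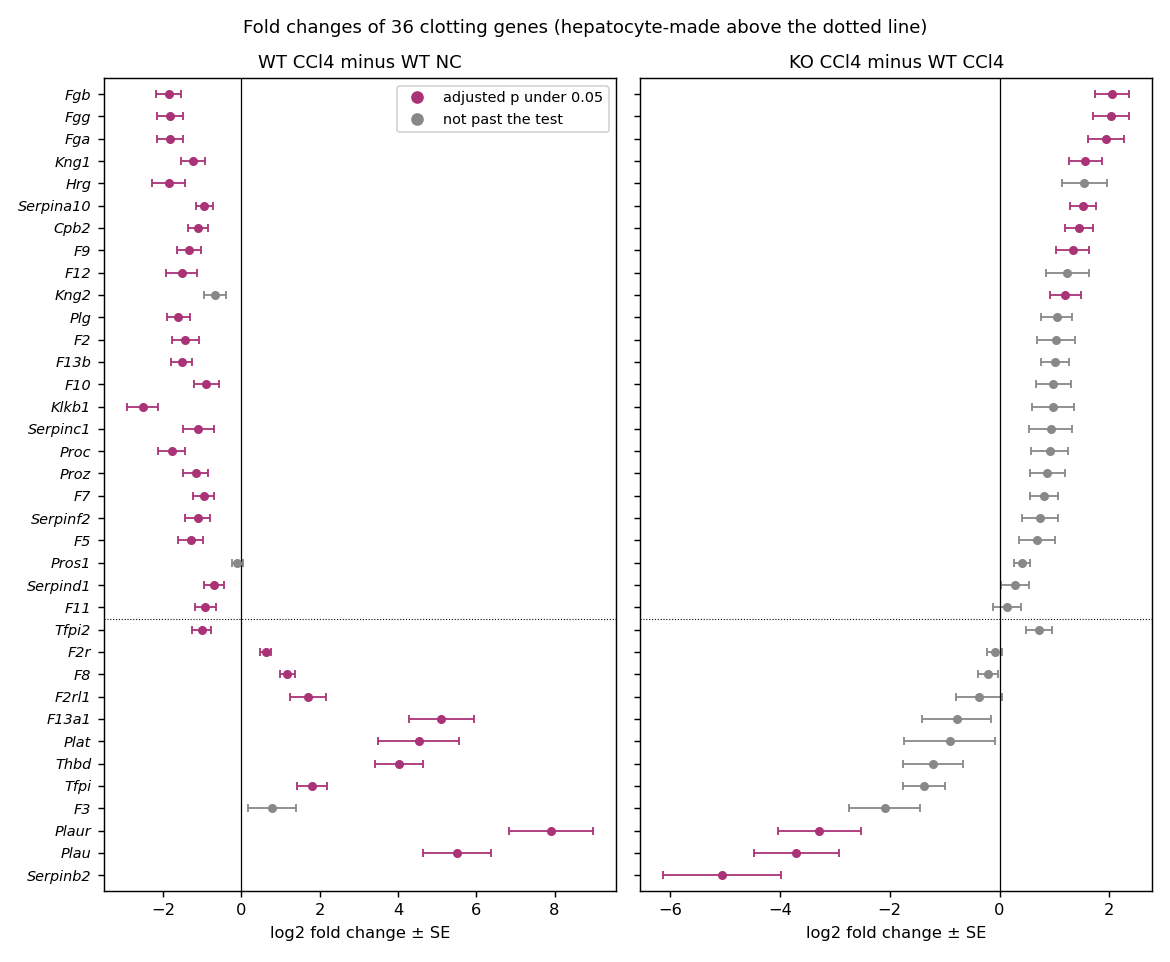
Log2 fold change with its standard error (edgeR, 9 libraries) of each gene with CCl4 in WT (left) and in KO against WT under CCl4 (right); purple points passed an adjusted p of 0.05, grey points did not, and Serpinb2 is left out on the left because its WT NC counts were 0. Hepatocyte-made genes, above the dotted line, lie left of 0 in the left panel and right of 0 in the right panel, and 3 purple points lie below 0 in the right panel.

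Fibrinogen was the most abundant product, and its 3 chains behaved alike. The genes lie next to each other on mouse chromosome 3 in mm10, with Fgg at chr3:83007724-83015049, Fga at chr3:83026076-83033627 and Fgb, on the opposite strand, at chr3:83040141-83049863. Fgb was at 7490, 6040 and 4350 CPM in WT NC, 1570, 1620 and 1740 CPM in WT CCl4 and 8120, 4760 and 7480 CPM in KO 72, 75 and 79. The 3 WT CCl4 samples were close together and below all others, and KO 75 was the lowest of the KO samples but within the WT NC range. Fga was at 7330, 6100 and 3960 CPM in WT NC, 1590, 1620 and 1700 CPM in WT CCl4 and 7740, 4290 and 6890 CPM in KO CCl4. Fgg was at 6040, 4850 and 2950 CPM in WT NC, 1280, 1270 and 1380 CPM in WT CCl4 and 6440, 3750 and 5870 CPM in KO CCl4. For both, the WT CCl4 samples overlapped neither of the other groups, which overlapped each other. With CCl4 in WT the chains fell 3.54-fold (Fga), 3.63-fold (Fgb) and 3.52-fold (Fgg), with edgeR adjusted p of 0.00217, 0.00172 and 0.00233. The log2 fold changes between KO and WT under CCl4 were 1.94 ± 0.33 for Fga, 2.05 ± 0.31 for Fgb and 2.03 ± 0.33 for Fgg (SE; edgeR adjusted p = 0.0272, 0.0206 and 0.0251). Without KO 75 they were 2.16, 2.25 and 2.24 (edgeR adjusted p = 0.000925, 0.000672 and 0.00106).

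The balance between the chains, which assemble in equal numbers into the secreted molecule, changed little. Per length, Fga stood at 0.815 to 0.921 of Fgb and Fgg at 1.08 to 1.3 times Fgb over the 9 libraries. The chains made up 46.1 to 60.9% of the summed FPKM of the hepatocyte-made genes in WT NC, 41.8 to 55.7% in WT CCl4 and 60.9 to 62.2% in KO CCl4. In the library labelled KO 75 the chains were at 4390 FPKM in sum, above the 1550 to 1630 FPKM of WT CCl4. F13b, the carrier subunit of the fibrin-linking factor XIII, was at 275, 310 and 260 CPM in WT NC, 73.3, 105 and 115 CPM in WT CCl4 and 243, 134 and 215 CPM in KO CCl4. It fell with CCl4 in WT by 1.53 ± 0.26 on the log2 scale (edgeR adjusted p = 0.00171), and the KO samples lay above WT CCl4 without passing (1.01 ± 0.25, edgeR adjusted p = 0.0523; 1.23, 0.00259 without KO 75).

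The DNA before the fibrinogen start sites is shown because these genes moved together, with 250 bases up to each RefSeq start (build GRCm38.p6, the assembly of the files' mm10). Capitals mark the C/EBP motif (TTGCNNAA on either strand), which fits a family of hepatocyte transcription factors, and the core of the IL-6 response element of acute-phase genes (CTGGGA on either strand). The windows are chr3:83025903-83026152 on the plus strand for Fga, chr3:83049864-83050113 on the minus strand for Fgb and chr3:83007474-83007723 on the plus strand for Fgg. The Fga window runs past the gene start given above (83026076), so its last part lies inside the gene as placed there. Distances are counted from the RefSeq start.
Fga: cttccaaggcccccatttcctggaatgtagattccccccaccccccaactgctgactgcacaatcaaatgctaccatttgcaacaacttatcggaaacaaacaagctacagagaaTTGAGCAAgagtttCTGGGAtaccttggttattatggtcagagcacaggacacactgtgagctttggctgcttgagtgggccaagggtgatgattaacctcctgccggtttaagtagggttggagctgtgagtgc
Fgb: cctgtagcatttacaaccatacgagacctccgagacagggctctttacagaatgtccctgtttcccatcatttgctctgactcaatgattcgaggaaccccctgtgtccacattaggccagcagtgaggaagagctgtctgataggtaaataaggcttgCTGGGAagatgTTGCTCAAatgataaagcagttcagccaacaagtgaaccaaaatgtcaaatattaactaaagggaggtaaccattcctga
Fgg: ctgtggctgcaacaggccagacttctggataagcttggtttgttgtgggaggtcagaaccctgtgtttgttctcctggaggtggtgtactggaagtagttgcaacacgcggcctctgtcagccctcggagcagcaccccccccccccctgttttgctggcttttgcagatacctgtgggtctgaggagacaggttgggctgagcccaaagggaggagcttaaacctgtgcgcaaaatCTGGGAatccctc
The C/EBP letters begin 135 bases before the start in Fga, where they read TTGAGCAA on the printed strand and match on the other, and 80 bases before it in Fgb, where they read TTGCTCAA. CTGGGA begins 121, 91 and 13 bases before the start in Fga, Fgb and Fgg. RefSeq windows were found for 28 of the 36 genes, 20 of them hepatocyte-made and 8 from vessel cells or leukocytes. The C/EBP letters stood in 7 of the 20 and in 2 of the 8, against 9.56% of 32851 mouse windows of this length, and CTGGGA stood in 8 of the 20 and 4 of the 8, against 27.0%. TATAAA stood in Klkb1 of the 20 and in Serpinb2 and Tfpi of the 8 (12.4% of all windows). A gene counted when any of its windows held the letters (33 windows for the 28 genes), while the percentages are per window. The shares are therefore not like for like, and genes with several windows had more chances. The matches are of letters and describe no binding.

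The vitamin K-dependent clotting proteases include thrombin's precursor (F2) and factors VII, IX and X, which hand activation on to each other. F9 was at 251, 251 and 196 CPM in WT NC, 64.2, 96.0 and 116 CPM in WT CCl4 and 291, 144 and 257 CPM in KO CCl4. F2 was at 1610, 1870 and 1640 CPM in WT NC, 390, 665 and 839 CPM in WT CCl4 and 1620, 800 and 1440 CPM in KO CCl4. KO 75 stood above every WT CCl4 sample for F9 but inside their range for F2, and below WT NC for both. With CCl4 in WT, F9 fell by 1.34 ± 0.30 and F2 by 1.43 ± 0.34 on the log2 scale (edgeR adjusted p = 0.00548 and 0.00733). F9 was higher in KO than in WT under CCl4 by 1.33 ± 0.30 (edgeR adjusted p = 0.0467; 1.58, 0.00197 without KO 75), and F2 did not pass (1.03 ± 0.34, 0.0853; 1.28, 0.00839 without KO 75). F7 and F10, neighbours on chromosome 8 with Proz, fell with CCl4 in WT by 0.96 and 0.90, and passed in KO against WT without KO 75 alone (1.05 and 1.23, edgeR adjusted p = 0.00575 and 0.00838). The F10 call with CCl4 was lost in 6 of 9 fits that left out 1 sample (edgeR adjusted p up to 0.104): those without WT NC 1, 2 or 3, WT CCl4 11 or 12, or KO 79. The F7 call was lost without WT NC 2 (0.051).

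The cofactors V and VIII speed the proteases on a membrane, and they moved in opposite directions. F5, made by hepatocytes, was at 574, 672 and 927 CPM in WT NC, 202, 304 and 374 CPM in WT CCl4 and 604, 300 and 506 CPM in KO CCl4. F8, made by endothelium, was at 27.6, 21.8 and 32.5 CPM in WT NC, 66.3, 57.8 and 60.1 CPM in WT CCl4 and 48.3, 63.5 and 47.6 CPM in KO CCl4. The WT CCl4 samples lay below WT NC for F5 and above it for F8, and the library labelled KO 75 fell inside the WT CCl4 range for both. F5 fell with CCl4 in WT by 1.3 ± 0.33 and F8 rose by 1.17 ± 0.19 on the log2 scale (edgeR adjusted p = 0.00935 and 0.00145). Between KO and WT, F5 passed without KO 75 alone (0.68 ± 0.33, edgeR adjusted p = 0.181; 0.92, 0.0298), and F8 passed in neither fit (-0.21 ± 0.18, 0.443; -0.35, 0.147). Fundc2 overlaps F8 on the other strand, with at most 360 counts in a library beside up to 1347 for F8, and the counting's use of strand is not given in the sources used here.

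The contact system starts clotting on surfaces through factors XII and XI, prekallikrein (Klkb1) and the kininogens (Kng1 and Kng2), from which bradykinin is cut. Klkb1 was at 174, 232 and 249 CPM in WT NC, 29.8, 38.7 and 45.6 CPM in WT CCl4 and 108, 32.8 and 83.1 CPM in KO CCl4. It fell with CCl4 in WT by 2.52 ± 0.40 on the log2 scale (edgeR adjusted p = 0.00142), the steepest of the 24 hepatocyte-made genes. It stayed below WT NC in KO CCl4 as well, by 1.55 ± 0.39 (edgeR adjusted p = 0.0231; 1.19, 0.0109 without KO 75), and did not pass in KO against WT unless KO 75 was left out (0.97 ± 0.38, 0.124; 1.33, 0.00311). Kng1 was at 2130, 2500 and 1790 CPM in WT NC, 624, 977 and 1110 CPM in WT CCl4 and 3210, 1970 and 2810 CPM in KO CCl4. Kng2 was at 293, 303 and 242 CPM in WT NC, 105, 183 and 237 CPM in WT CCl4 and 443, 336 and 426 CPM in KO CCl4. All 3 KO samples, KO 75 included, were above WT CCl4 for both kininogens, and above WT NC for Kng2. Kng1 fell with CCl4 in WT (-1.24 ± 0.30, edgeR adjusted p = 0.00704) and Kng2 did not pass (-0.67 ± 0.28, 0.0679). Both were higher in KO than in WT under CCl4, by 1.56 ± 0.30 for Kng1 and 1.20 ± 0.28 for Kng2 (edgeR adjusted p = 0.0356 and 0.0488; 1.74 and 1.31, 0.00197 and 0.00814 without KO 75). Their transcripts were 91.8% identical over 1345 bases, so how reads were divided between them is uncertain.

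F12, whose protein starts the contact system, had means of 482 ± 14.7, 167 ± 59.9 and 392 ± 176 CPM in WT NC, WT CCl4 and KO CCl4 (SD, n = 3), and the library labelled KO 75 was at 38.3% of the mean of the other KO samples. F12 fell with CCl4 in WT by 1.53 (edgeR adjusted p = 0.01) and passed in KO against WT without KO 75 alone (1.57, 0.00352; 1.23, 0.0786 with it). F11, next to Klkb1 on chromosome 8, was an exception. Its KO samples lay at 47.5, 46.0 and 46.3 CPM, inside the 27.3 to 55.0 CPM of WT CCl4 and below the 67.0 to 104 CPM of WT NC. F11 fell with CCl4 in WT by 0.92 (edgeR adjusted p = 0.0161, lost without WT NC 2 at 0.0657), and its log2 fold change in KO against WT was 0.14 ± 0.26 (0.739).

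Natural anticoagulants made by hepatocytes fell with CCl4 in WT in 5 of 6 genes. Among all 24 hepatocyte-made genes 22 fell, and 25% of all genes tested were called lower. Proc, which encodes protein C, was at 477, 525 and 508 CPM in WT NC, 88.3, 161 and 191 CPM in WT CCl4 and 336, 165 and 328 CPM in KO CCl4. Serpinc1, which encodes antithrombin, the main inhibitor of thrombin, was at 1290, 1310 and 1250 CPM in WT NC, 357, 642 and 798 CPM in WT CCl4 and 1470, 581 and 1370 CPM in KO CCl4. For both the library labelled KO 75 lay within WT CCl4, while KO 72 and KO 79 lay above it, and for Proc below WT NC. With CCl4 in WT, Proc fell by 1.78 ± 0.34 and Serpinc1 by 1.10 ± 0.39 on the log2 scale (edgeR adjusted p = 0.00285 and 0.0373). The Serpinc1 call was lost in 6 of 9 fits with 1 sample left out (edgeR adjusted p up to 0.107): those without WT NC 1, 2 or 3, WT CCl4 11 or 12, or KO 79. Neither passed in KO against WT (0.91 ± 0.33 for Proc and 0.93 ± 0.39 for Serpinc1, edgeR adjusted p = 0.108 and 0.139), and both did without KO 75 (1.18 and 1.25, 0.01 and 0.00963).

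Serpina10, the protein Z-dependent inhibitor of factor Xa, was at 286, 260 and 197 CPM in WT NC, 104, 135 and 145 CPM in WT CCl4 and 422, 287 and 394 CPM in KO CCl4. All KO samples lay above both other groups. It fell with CCl4 in WT by 0.95 ± 0.22 (edgeR adjusted p = 0.00666) and was higher in KO than in WT under CCl4 by 1.52 ± 0.23 (0.0199; 1.67, 0.000843 without KO 75), the smallest adjusted p of the 36 genes in that comparison. Its cofactor protein Z (Proz) fell with CCl4 by 1.17 (edgeR adjusted p = 0.0131), and in KO against WT passed without KO 75 alone (1.16, 0.00397; 0.87, 0.108 with it). Serpind1, heparin cofactor II, fell by 0.70 (edgeR adjusted p = 0.0424), the smallest of the 22 falls. That call was lost in 7 of 9 fits with 1 sample left out, namely any fit but those without WT CCl4 13 or KO 75, and in KO against WT it did not pass (0.28, 0.465; 0.38, 0.261 without KO 75). Pros1, which encodes the cofactor of protein C and is also made by endothelium, was the exception among the 24, with 87.5 ± 11.7, 81.5 ± 2.77 and 108 ± 10.9 CPM in WT NC, WT CCl4 and KO CCl4 (SD, n = 3). Pros1 passed in neither comparison (-0.10 ± 0.15 and 0.41 ± 0.15, edgeR adjusted p = 0.581 and 0.105), and in CPM it was the only one of the 24 with its highest KO value in the library labelled KO 75.

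**Figure D3:**
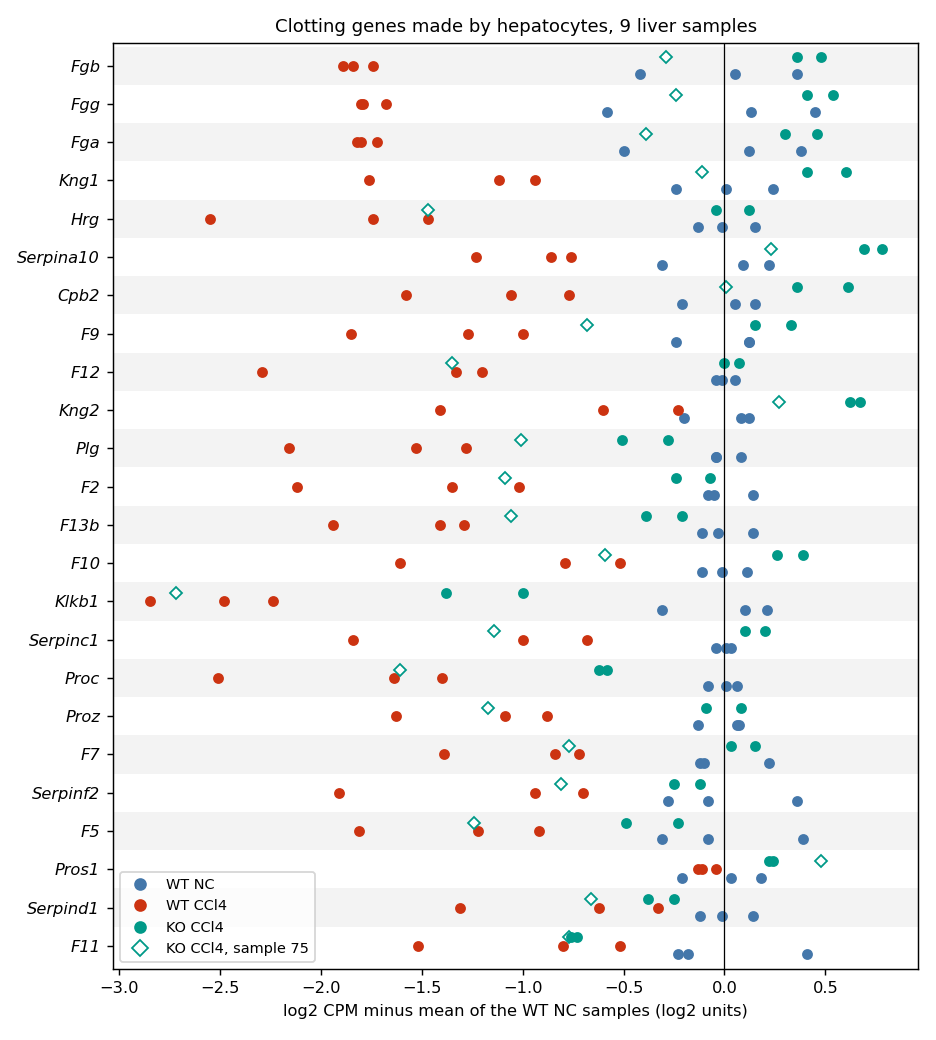
The 24 hepatocyte-made genes, each point 1 of 9 samples as log2 CPM minus the WT NC mean (log2 units), ordered by the KO against WT fold change; the open diamond is KO 75. KO 72 lies above all WT CCl4 samples in 23 genes, KO 79 in 22 and KO 75 in 12, where 37.7%, 36% and 27.5% of all genes tested did so.

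Fibrinolysis genes of the hepatocyte were lower with CCl4 in WT in 4 of 4, beside 22 of all 24 hepatocyte-made genes and 25% of all genes tested. Cpb2, whose product protects fibrin from plasmin, was at 506, 472 and 395 CPM in WT NC, 153, 218 and 267 CPM in WT CCl4 and 695, 460 and 586 CPM in KO CCl4. The WT CCl4 samples were below all others, and it fell with CCl4 by 1.11 ± 0.25 and was higher in KO than in WT by 1.45 ± 0.25 (edgeR adjusted p = 0.00563 and 0.0305; 1.59, 0.00182 in KO against WT without KO 75). Plg, the plasminogen gene, had means of 2290 ± 110, 748 ± 219 and 1540 ± 379 CPM in WT NC, WT CCl4 and KO CCl4 (SD, n = 3), without overlap between any pair of groups. It fell with CCl4 by 1.61 (edgeR adjusted p = 0.00209), and its difference between KO and WT passed without KO 75 alone (1.22, 0.006; 1.04, 0.0597 with it). Hrg, a plasma protein that binds plasminogen and heparin, fell by 1.86 (edgeR adjusted p = 0.00549), and in KO against WT passed without KO 75 alone (1.90, 0.00175; 1.54, 0.058 with it). Serpinf2, the plasmin inhibitor α2-antiplasmin, fell by 1.12 (edgeR adjusted p = 0.019, lost without WT NC 2 at 0.071) and did not pass in KO against WT (0.74, 0.163; 0.92, 0.0518 without KO 75).

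The library labelled KO 75 separated the hepatocyte-made genes. In CPM it was below KO 72 and KO 79 in 23 of the 24, as in 41.1% of all genes tested, at 34.3% (Klkb1) to 98.1% (F11) of their mean. In FPKM this library was also the highest KO sample for F11, Serpind1 and Kng2, and lay between the others for Cpb2. In 12 genes, 27.5% over all genes tested, it stood above all WT CCl4 samples (Fga, Fgb, Fgg, F9, F13b, Pros1, Serpina10, Plg, Kng1, Kng2, Cpb2 and, by less than the digits printed, Hrg), and in the other 12, among them Serpinc1, F2, Proc and Klkb1, it fell within them. Its hepatocyte markers, 11 genes found of a list of 12, summed to 84000 CPM, beside 104000 and 88700 CPM in KO 72 and KO 79, 45600 to 76800 CPM in WT CCl4 and 108000 to 128000 CPM in WT NC. In FPKM the order within the KO group was another, with 38400 in KO 75 beside 34600 and 31900 in KO 72 and KO 79. The FPKM sums were 21700 to 35700 in WT CCl4 and 42700 to 47600 in WT NC. Of the 11 markers, 9 fell with CCl4 in WT, where 25% of all genes tested were called lower. In KO against WT, 4 were higher and 1 lower, where 3.46% and 1.61% of all genes tested were called so. Without KO 75 the counts were 6 and 1, where 17.2% and 20.4% of all genes tested were called so. None of the 11 markers was at 0 in any library. The part of these markers in the differences of the 24 genes was not tested. The order of the WT CCl4 samples was shared too, with sample 11 lowest in 23 of the 24 genes and sample 13 highest in 23, where 42.5% and 39.8% of all genes tested had that sample lowest or highest.

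The genes of vessel cells and leukocytes showed their widest changes in the activation of plasminogen. Plau, which encodes uPA, was at 1.20, 2.21 and 0.907 CPM in WT NC, 125, 52.2 and 16.6 CPM in WT CCl4 and 2.15, 9.05 and 3.57 CPM in KO CCl4. Plaur, the receptor of uPA, was at 0.199, 0.138 and 0.107 CPM in WT NC, 74.4, 27.2 and 8.37 CPM in WT CCl4 and 1.73, 6.65 and 2.86 CPM in KO CCl4. For both genes every WT CCl4 sample was above every other sample, they spanned several-fold among themselves, and KO 75 was the highest KO sample. With CCl4 in WT, Plau rose by 5.50 ± 0.87 and Plaur by 7.91 ± 1.07 on the log2 scale (edgeR adjusted p = 0.00142 and 0.000976), the latter from 7 counts over the 3 WT NC libraries to 2180 over WT CCl4. Under CCl4, KO against WT, both were lower, with log2 fold changes of -3.70 ± 0.77 for Plau and -3.28 ± 0.76 for Plaur (edgeR adjusted p = 0.0417 and 0.0474; -4.49 and -3.99, 0.00439 and 0.00701 without KO 75).

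Serpinb2, the uPA inhibitor PAI-2 of macrophages, had no count in any WT NC library. It was at 47.8, 19.7 and 2.16 CPM in WT CCl4 and 0.477, 0.660 and 0.935 CPM in KO CCl4, with the lowest WT CCl4 sample still above the highest KO sample. Taking 3 counts in the pooled WT NC libraries as the floor, the mean of WT CCl4 was at least 374-fold higher and that of KO CCl4 at least 11.1-fold higher. The WT CCl4 mean (23.2 ± 23 CPM, SD, n = 3) rests mainly on samples 11 and 12, and sample 13 lay much nearer the floor. In KO against WT its log2 fold change was -5.05 ± 1.07 (edgeR adjusted p = 0.0488; -5.01, 0.024 without KO 75), on 39 counts over the 3 KO libraries. Plat, the gene of tPA, behaved otherwise: it was at 0.532, 0.414 and 0.213 CPM in WT NC, 13.1, 8.84 and 4.84 CPM in WT CCl4 and 0.775, 11.5 and 1.76 CPM in KO CCl4, so that KO 75 lay within WT CCl4 while KO 72 and KO 79 lay below it. Plat rose with CCl4 in WT by 4.53 ± 1.03 (edgeR adjusted p = 0.00571) and did not differ past the threshold between KO and WT (-0.91 ± 0.82, 0.453) unless KO 75 was left out (-2.80, 0.00512).

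The sequence before Serpinb2 and Plaur is shown because both rose from near 0 and both were lower in KO. Capitals mark the AP-1 motif TGANTCA (either strand), which fits a factor induced by stress and growth signals. The RefSeq windows (GRCm38.p6) are chr1:107511173-107511422, the more upstream of the pair for Serpinb2, and chr7:24462233-24462482 for Plaur, both on the plus strand.
Serpinb2: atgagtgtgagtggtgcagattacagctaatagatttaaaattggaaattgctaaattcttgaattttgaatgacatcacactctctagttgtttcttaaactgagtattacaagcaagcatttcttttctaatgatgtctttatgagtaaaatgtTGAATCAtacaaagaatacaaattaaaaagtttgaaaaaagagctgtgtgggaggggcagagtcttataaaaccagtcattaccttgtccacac
Plaur: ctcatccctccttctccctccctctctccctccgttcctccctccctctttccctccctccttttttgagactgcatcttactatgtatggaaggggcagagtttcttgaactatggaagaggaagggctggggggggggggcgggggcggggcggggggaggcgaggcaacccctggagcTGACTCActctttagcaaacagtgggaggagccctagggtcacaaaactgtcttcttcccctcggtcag
The letters begin 94 bases before the start in Serpinb2 and 69 bases before it in Plaur. Counted by gene as before, they were found in 5 of the 8 genes of vessel cells and leukocytes with a window (F2r, F3, Plaur, Serpinb2 and Tfpi2). They were also found in 3 of the 20 hepatocyte-made genes (F2, Fgb and Hrg), against 6.75% of all windows. With CCl4 in WT, F2r rose by 0.62 on the log2 scale, Tfpi2 fell by 1.01 and F3 did not pass. The part of the letters in the changes of these genes was not tested.

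Tissue factor, the membrane protein that starts clotting, varied widely between the WT CCl4 samples. F3 was at 7.24, 5.45 and 4.00 CPM in WT NC, 19.2, 6.62 and 2.84 CPM in WT CCl4 and 3.46, 1.60 and 1.70 CPM in KO CCl4. WT CCl4 reached from below to above the WT NC range, and the KO samples were all below WT NC. F3 passed in no comparison (0.78 ± 0.62 with CCl4 in WT, edgeR adjusted p = 0.304; -2.09 ± 0.65 in KO against WT, 0.076; -1.89, 0.0712 without KO 75), and without WT CCl4 11 the first value turned to -0.23.

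Thrombomodulin (Thbd), with which endothelium turns thrombin into an activator of protein C, rose with CCl4. It was at 3.65, 3.10 and 4.16 CPM in WT NC, 91.5, 51.0 and 36.4 CPM in WT CCl4 and 10.8, 50.9 and 15.6 CPM in KO CCl4. Every WT NC sample lay below every CCl4-treated sample, and KO 75 stood within them while KO 72 and KO 79 lay between the groups. The rise with CCl4 was 4.03 ± 0.62 on the log2 scale (edgeR adjusted p = 0.00135), and the difference between KO and WT passed without KO 75 alone (-2.17, 0.00354; -1.21 ± 0.55, 0.164 with it). Tfpi, the inhibitor of the tissue factor complex, had means of 7.39 ± 2.75, 25.7 ± 6.41 and 9.95 ± 4.17 CPM in WT NC, WT CCl4 and KO CCl4 (SD, n = 3). It rose with CCl4 by 1.80 (edgeR adjusted p = 0.00468), and all KO samples, KO 75 included, lay below WT CCl4 (-1.37, 0.0624; -1.70, 0.01 without KO 75). Tfpi2, a related inhibitor, moved as the hepatocyte-made genes did, with 66.6 to 96.1 CPM in WT NC, 38.0 to 44.0 CPM in WT CCl4 and 43.8 to 81.9 CPM in KO CCl4, a fall of 1.01 with CCl4 (edgeR adjusted p = 0.00681) and a difference in KO that passed without KO 75 alone (0.95, 0.00404; 0.72, 0.0853 with it).

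F13a1, the catalytic subunit of factor XIII that macrophages and platelets carry, was at 0.399, 0.414 and 0.0533 CPM in WT NC, 14.0, 8.74 and 6.27 CPM in WT CCl4 and 2.21, 11.3 and 3.35 CPM in KO CCl4. It rose with CCl4 in WT by 5.10 ± 0.83 (edgeR adjusted p = 0.00155), opposite to its partner F13b, and in KO against WT passed without KO 75 alone (-1.79, 0.022; -0.78, 0.407 with it). The thrombin receptor F2r was at 33.5, 37.9 and 34.5 CPM in WT NC, 51.3, 50.9 and 60.1 CPM in WT CCl4 and 48.2, 58.0 and 46.6 CPM in KO CCl4. The related receptor F2rl1, cut by factor VIIa, factor Xa and trypsin, was at 0.332, 0.483 and 0.267 CPM in WT NC, 0.961, 1.43 and 1.11 CPM in WT CCl4 and 0.894, 1.18 and 0.605 CPM in KO CCl4. All CCl4-treated samples lay above WT NC for both receptors. They rose with CCl4 in WT by 0.62 ± 0.14 and 1.69 ± 0.46 (edgeR adjusted p = 0.0063 and 0.0135, the F2rl1 call lost without WT NC 3 or WT CCl4 12 at up to 0.0567). Neither receptor passed in KO against WT (-0.09 and -0.38, edgeR adjusted p = 0.693 and 0.55; -0.19 and -0.63, 0.318 and 0.332 without KO 75).

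**Figure D4:**
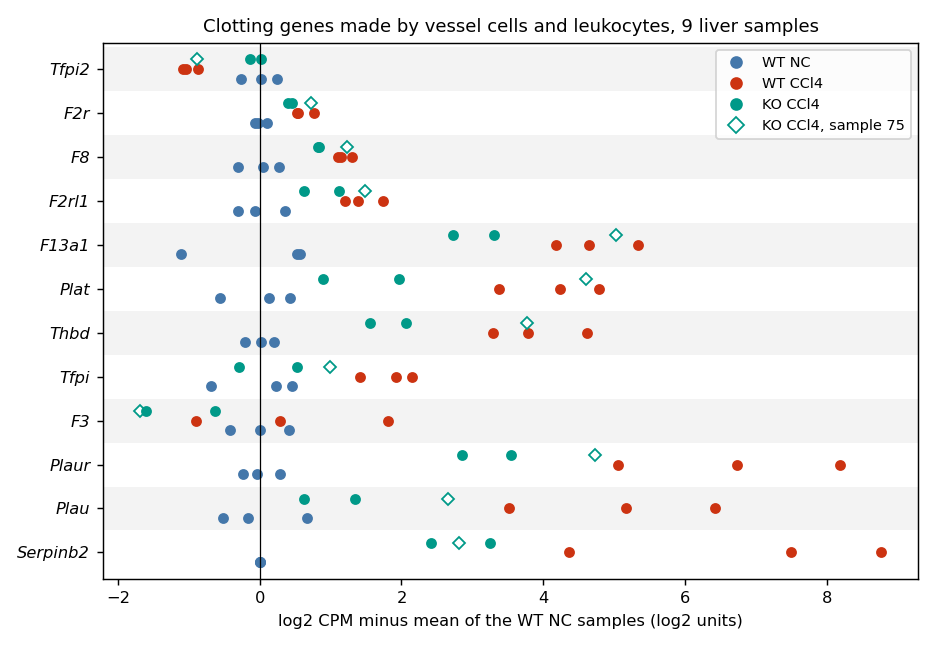
The 12 genes of vessel cells and leukocytes, each point 1 of 9 samples as log2 CPM (prior count 2) minus the WT NC mean, ordered by the KO against WT fold change; the open diamond is KO 75. KO 75 lies within the WT CCl4 points for F13a1, Plat, Thbd, F8, F2r, F2rl1 and Tfpi2, and below them for Plau, Plaur, Serpinb2, Tfpi and F3.

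**Figure D5:**
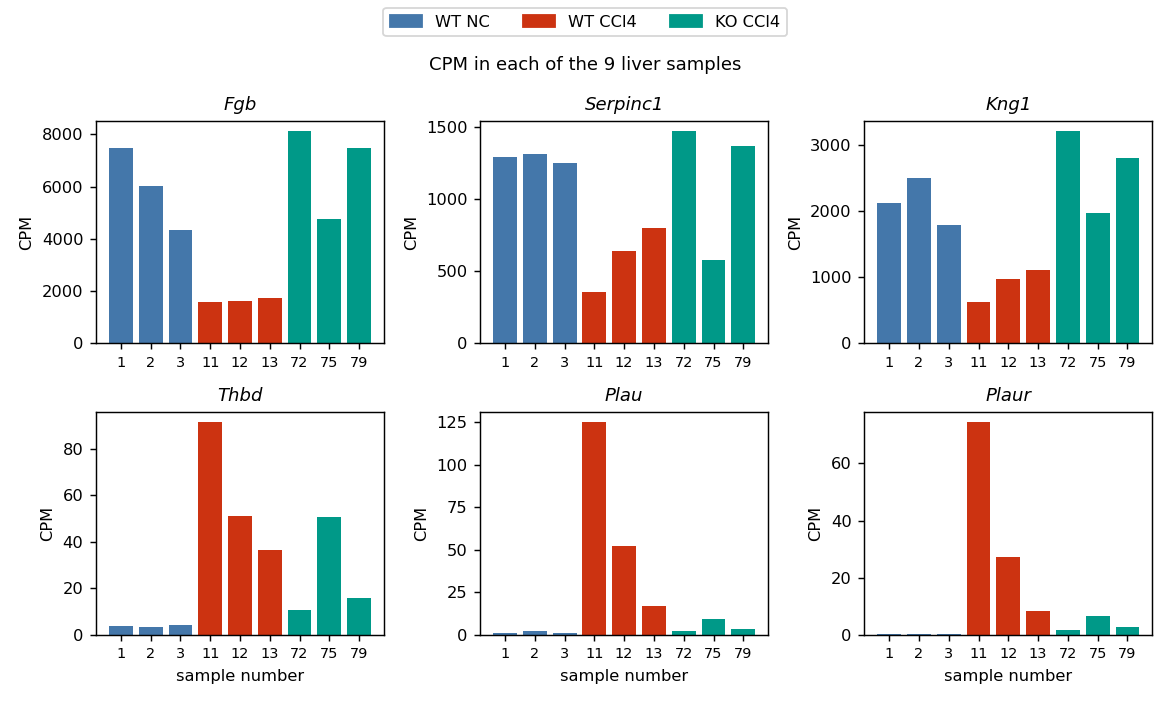
CPM of 6 genes in each sample (bars from 0, 1 bar a sample, coloured by group). Fgb and Kng1 in KO 75 stand above the WT CCl4 bars, Serpinc1 in KO 75 is as low as they are, Thbd in KO 75 is as high as they are, and Plau and Plaur in KO 75 (9.05 and 6.65 CPM) are the highest KO bars but below the lowest WT CCl4 bars (16.6 and 8.37 CPM).

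Markers of the cells that make these genes were followed in the same samples. All 12 macrophage markers rose with CCl4 in WT, where 29.5% of all genes tested were called higher, and their sum was 436 to 543 CPM in WT NC, 2700 to 6660 CPM in WT CCl4, and 707, 4070 and 1340 CPM in KO 72, 75 and 79. Of 12 endothelial markers 10 rose, with sums of 338 to 441, 997 to 1230, and 627, 961 and 663 CPM. Of 10 platelet and megakaryocyte markers 5 were tested and 3 of these rose, with sums of 12.9 to 16.9 CPM in WT NC, 48.2 to 104 CPM in WT CCl4, and 16.2, 74.3 and 29.5 CPM in the KO samples, and up to 5 of the 10 were at 0 in a WT NC library. Neutrophil markers (8 genes, of which 7 were tested and all 7 rose) summed to 2.90 to 6.98, 36.5 to 83.7, and 21.0, 42.7 and 24.7 CPM, with 2 to 4 of the 8 at 0 in WT NC. In KO against WT none of the macrophage, endothelial, platelet or neutrophil markers passed edgeR with all libraries, and 2, 6, 1 and 2 of them had an unadjusted p under 0.05. Without KO 75, 11 of 12 macrophage, 10 of 12 endothelial, 2 of 5 platelet and 2 of 7 neutrophil markers were lower in KO, where 20.4% of all genes tested were called lower. In KO 75 the macrophage, platelet and neutrophil sums lay within WT CCl4, and the endothelial sum lay below it. Of the lists described under the other observations, the mesothelium sum also lay below WT CCl4 (34.9 CPM beside 50.4 to 191 CPM). The stellate cell and bile duct sums lay within WT CCl4. Plau, Plaur, Serpinb2, Tfpi and F3 lay below WT CCl4 in that library, and the other 7 of the 12 genes lay within. The part of these cells in the 12 genes was not tested.

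Of 21 further genes of the pathway, 18 could be tested; 6 rose and 4 fell with CCl4 in WT, shares near the 29.5% and 25% of all genes tested, and 3 were higher in KO than in WT (8 without KO 75), where 3.46% of all genes tested (17.2% without KO 75) were called higher. Serping1, the C1 inhibitor that also blocks the contact proteases, fell with CCl4 by 1.53 and was higher in KO than in WT by 1.11 (edgeR adjusted p = 0.000976 and 0.035; 1.29, 0.000672 without KO 75). Fgl1, a liver protein related to fibrinogen, was higher in KO than in WT by 2.39 ± 0.38 (edgeR adjusted p = 0.0219; 2.56, 0.0017 without KO 75), with 621, 463 and 218 CPM in WT NC, 223, 293 and 309 CPM in WT CCl4 and 1700, 1080 and 1540 CPM in KO CCl4. The third of the higher genes was Habp2, a plasma protease (0.93, edgeR adjusted p = 0.0387; 1.03, 0.00345 without KO 75). Vkorc1, which recycles the vitamin K that the clotting proteases need, fell with CCl4 by 1.67, and Anxa2, part of a surface receptor for plasminogen and tPA, rose by 4.26 (edgeR adjusted p = 0.00176 and 0.00108). Von Willebrand factor (Vwf), the endothelial carrier of factor VIII, passed in neither comparison (-0.29 and -0.19, edgeR adjusted p = 0.354 and 0.627), with 5.53 to 8.15 CPM in WT CCl4 beside 6.34 to 9.70 CPM in WT NC.

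Set beside WT NC, the CCl4-treated KO samples differed past the threshold in 7 of the 36 genes, a share near that of all genes tested. Of the 24 hepatocyte-made genes only Klkb1 was lower and none was higher, where 8.98% of all genes tested were called lower, and 4 of the 24 had an unadjusted p under 0.05. Of the 12 vessel or leukocyte-made genes 6 were higher, where 14% of all genes tested were called higher: F13a1 (4.32), Plaur (4.63), Plat (3.62), Thbd (2.82), F8 (0.96) and F2r (0.53 on the log2 scale, edgeR adjusted p of the 6 from 0.00914 to 0.0334). Without KO 75, Plat and F2r no longer passed (edgeR adjusted p = 0.0836 and 0.065) and Serpina10 was higher (0.72, 0.0385). Other calls were lost as well on leaving out 1 sample: Plaur without any of the WT NC libraries (edgeR adjusted p up to 0.0685), Thbd without WT NC 1 or 2 (up to 0.0569), Klkb1 without WT NC 2, WT NC 3 or KO 79 (up to 0.0713), Plat without WT CCl4 12 or any WT NC library (up to 0.11) and F2r without WT CCl4 12, KO 79 or any WT NC library (up to 0.0961). F8 and F13a1 passed in all 9 of these fits. The fibrinogen chains lay at 0.12 (Fga), 0.19 (Fgb) and 0.22 (Fgg) with standard errors of 0.30 to 0.32, so neither equality nor a moderate difference from WT NC is shown. This comparison shares its libraries with the other comparisons and is no independent test.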

How the data were processed

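RNA of 9 mouse liver samples was sequenced and each sample was placed in its group by its title. Read counts for each gene, as whole numbers, and FPKM stand side by side in 1 deposited table, per the file headers. The submitters' processing notes name HISAT2 2.0.4, StringTie 1.3.0 and the genome mm10 (GRCm38.p4). Which tool counted the reads, whether it used strand and which gene annotation it read is not given in the sources used here, so overlapping genes and near copies are uncertain. No value column was left unused. Library totals were 16447353 to 20373585 counts, and 3 counts in a library stood for 0.147 to 0.182 CPM; such floors cover counting error only.

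Counts were tested with edgeR 4.0.16 in R 4.3.3 (TMM, filterByExpr, quasi-likelihood fit with a mean per group over 9 libraries, Benjamini-Hochberg over 14134 genes, threshold 0.05), checked on simulated data. CPM used TMM library sizes, and plotted log2 CPM a prior count of 2. Standard errors were obtained by dividing each log2 fold change by the root of its F statistic. Fits without KO 75 held 14469 genes. No pair of replicates was a repeat deposit: chi-square divided by its degrees of freedom was 13.8 to 186 within groups. Since the labels name no separate animals, p-values reflect only how much these samples vary, which may be technical. Alternatives were DESeq2 1.42.0, limma 3.58.1 on log2(FPKM + 1) or log2(FPKM + 0.1) with a minimum of 1 FPKM in 3 libraries or none, other scalings and filters, fits of 6 libraries, and leaving out each sample.

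The members, roles and gene lists were chosen with earlier results of these data known. Values in every sample are given for Fga, Fgb, Fgg, F8, F3, Thbd, Plau, Plaur and Serpinc1, for genes past the threshold in KO against WT, and for the 2 genes of each role with the smallest p with CCl4 in WT; F11, Pros1 and the rest are given by mean, range or count, except that the KO values of F11 were added after they were seen. Of the further pathway genes, Vwf and the 3 called genes with the smallest p in each of the first 2 comparisons are named, and Habp2 and the Fgl1 values were added after they were seen. A further gene that this rule names is not reported here. The Tf symbol of the hepatocyte marker list was not found in the table.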

Additional observations from a re-analysis of the deposited data

How the results depend on the processing

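With CCl4 in WT, the count of genes that rose was 9 to 10 and of those that fell 17 to 24 over the fits that left out 1 sample, and no other setting moved either by more than 1.5 times. In KO against WT, 8 genes were higher and 3 lower; DESeq2 gave 17 (16 hepatocyte-made) and 5, the fit of only the 6 samples compared gave 0 and 0, limma on log2(FPKM + 0.1) gave 1 lower, and limma without a minimum gave 0 lower. Leaving out 1 sample gave 0 to 21 higher (hepatocyte-made 0 to 20) and 0 to 7 lower. Against WT NC, KO CCl4 had 6 higher and 1 lower; limma on log2(FPKM + 1) gave 2 higher, limma without a minimum 0 higher, DESeq2 and the fit of 6 samples 2 lower each, and leaving out 1 sample 2 to 7 higher and 0 to 2 lower. Counts by source were added after seeing the data. Over all genes, KO against WT gave 489 higher and 228 lower, 1512 and 1258 in DESeq2, and 25 and 5 in the fit of 6 samples. Leaving out 1 sample gave 3 to 2495 higher and 2 to 2958 lower over all genes in this comparison. The FPKM scale moved the median of all genes to 0.21 with CCl4 and to -0.19 in KO against WT.

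Values that turned sign were small and not called. On FPKM, Pros1 with CCl4 in WT became 0.23 (pseudocount 1), 0.25 (pseudocount 0.1) and 0.23 (no minimum), and F11 in KO against WT -0.08, -0.09 and -0.08. Leaving out 1 sample gave -0.23 to 1.22 for F3 with CCl4 in WT and -0.10 to 0.37 for F11 in KO against WT. Against WT NC the ranges in KO CCl4 were -0.10 to 0.34 (Fga), -0.01 to 0.39 (Fgb), -0.04 to 0.46 (Fgg), -0.32 to 0.08 (F7), -0.22 to 0.24 (F9), -0.10 to 0.33 (F10), -0.52 to 0.03 (F12), -0.39 to 0.15 (Serpinc1) and -0.59 to 0.04 (Hrg), and F9 was 0.00 with no filter. The cause was not tested. No paired analysis was possible because the groups share no replicate numbers. With 3 samples a group and 7 to 39 counts behind Plaur in WT NC and Serpinb2 in KO CCl4, those levels are imprecise.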

Other observations

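Transcription factors of the hepatocyte that are known to act on clotting genes, a list of 10, fell with CCl4 in WT in 5 (Hnf4a, Foxa1, Cebpa, Nr1h4 and Prox1) and rose in none, where 25% of all genes tested were called lower, and 5 had an unadjusted p under 0.05. Hnf4a, a nuclear receptor of hepatocytes, was at 772, 589 and 805 CPM in WT NC, 187, 302 and 353 CPM in WT CCl4 and 661, 337 and 592 CPM in KO 72, 75 and 79. It fell by 1.36 ± 0.32 on the log2 scale (edgeR adjusted p = 0.00642). Cebpa, a member of the C/EBP family, was at 322, 300 and 370 CPM in WT NC, 123, 103 and 15.4 CPM in WT CCl4 and 232, 94.7 and 196 CPM in KO CCl4, and it fell by 2.04 ± 0.64 (edgeR adjusted p = 0.0231). In KO against WT under CCl4, Onecut1 alone of the 10 passed (2.03 ± 0.49, edgeR adjusted p = 0.0496), where 3.46% of all genes tested were called higher, and 7 of the 10 had an unadjusted p under 0.05. Without KO 75, 7 were higher: Hnf4a, Foxa1, Foxa2, Stat3, Onecut1, Nr1h4 and Prox1, by 0.82 to 2.47 on the log2 scale, where 17.2% of all genes tested were called higher. Their part in the levels of the clotting genes was not tested.

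Markers of stellate cells, mesothelium and bile ducts were followed in the same libraries. Of 10 stellate cell and myofibroblast markers all 10 rose with CCl4 in WT, where 29.5% of all genes tested were called higher, with sums of 98.9 to 249 CPM in WT NC, 1430 to 2440 CPM in WT CCl4 and 235, 1490 and 452 CPM in KO 72, 75 and 79. The 6 mesothelium markers all rose, from 0.965 to 2.46 CPM in sum in WT NC, where 3 to 5 of the 6 were at 0, to 50.4 to 191 CPM in WT CCl4, and stood at 4.47, 34.9 and 9.57 CPM in the KO samples. Of the bile duct markers 5 were tested and 3 rose. In KO against WT none of these 3 lists had a member past the edgeR threshold (4, 6 and 1 had an unadjusted p under 0.05), and without KO 75 9 stellate, 6 mesothelium and 3 bile duct markers were lower, where 20.4% of all genes tested were called lower.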
